A study of Sus scrofa with 37 samples.

Results

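Transcript levels in the peripheral blood mononuclear cells (PBMC) of weaned piglets were examined at 28 days postnatum (dpn), before any experimental diet was fed. The arrays were chosen by the age in the sample labels, which gave 19 of the 37 arrays of the series, and were grouped by the diet that each pig received afterwards. The later dietary groups were low-intake (L), with 3 female and 3 male pigs, medium-intake (M), with 3 female and 3 male pigs, and high-intake (H), with 4 female and 3 male pigs. All 19 were untreated German Landrace pigs (Sus scrofa) of the same age, 1 array for each pig, and the words L, M and H therefore name a future diet that differed in its phosphorus content. Of these pigs 18 were measured again at 63 dpn, on their diets, which gave 6 L, 5 M and 7 H arrays. The pigs came from several litters, and neither litter nor sire is given in the labels, so that their part in any difference between the groups was not tested. The comparison asks how far the later groups differed before feeding, and which genes varied most between pigs at that time.

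PBMC are the lymphocytes and monocytes that a density gradient separates from granulocytes and red cells, and their RNA is a mixture in which each cell type contributes its own genes. Around weaning the piglet loses the antibodies of the milk and meets new feed and microbes, while its own B cells, T cells and natural killer (NK) cells are still expanding. Cytotoxic lymphocytes carry granules with granzymes, perforin and granulysin, and cells that sense viral nucleic acid release interferons, which switch on a common set of antiviral genes in their neighbours. In a mixture of this kind, fewer cells of a type and less RNA per cell cannot be told apart.

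Levels are log2 values of a porcine expression array after normalization by the authors, and a difference of 1 is a doubling of signal. Of the probe sets of the array 28086 passed the filters of the study and entered limma, which fits a linear model to each and steadies its variance by those of the others. A probe set is called here where both the P value and the q value (a P value corrected over all probe sets) were at most 0.05. The P values set a difference against the spread between pigs within groups. For the diet comparisons that spread came from all 37 arrays of both ages. The defining markers of PBMC were present, with mean levels of 10.27 for CD3E (T cells), 9.02 for CD8A (cytotoxic T cells), 11.33 for MS4A1 (B cells) and 8.36 for CD14 (monocytes). Transcripts of other blood cells were present too, with a mean of 9.37 for the platelet chemokine PPBP, 6.46 for S100A8, a gene of granulocytes and monocytes, and 11.63 for EPB42, a membrane protein of the red cells that the gradient is meant to remove. HBB and JCHAIN were not among the named probe sets that passed the filter. Array medians at 28 dpn lay between 5.29 and 5.42, the correlation between arrays between 0.934 and 0.980, and the first principal component held 15.8% of the variance, with pig 18 (H) at one end and pig 2 (M) at the other.

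The median SD of a probe set over the 19 pigs was 0.292, and 87 probe sets exceeded an SD of 1. The later diet accounted for a median of 12.4% of the variance of a probe set and sex for a median of 2.72%, as a description without a test. Unrelated groups would take a mean of 11.11% for 3 diets and 5.556% for sex, so the 2 shares are not comparable directly. These values are means and the shares above are medians. The medians for unrelated groups were not computed, so neither share can be called above or below that of unrelated groups. Of the 30 most variable named genes, taken by the largest SD, 21 had a larger SD at 28 than at 63 dpn, against 44.4% of all probe sets, which the choice by the 28 dpn SD favours. A mean level under 5 was seen in 13 of them. The highest ranks belonged to KDM6A, a histone demethylase, with an SD of 2.39, and to EIF2S3, a translation initiation factor, with an SD of 1.78, both of which followed the sex of the pig as described below. The choice by SD is a description, and no test was made of it.

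**Figure D1:**
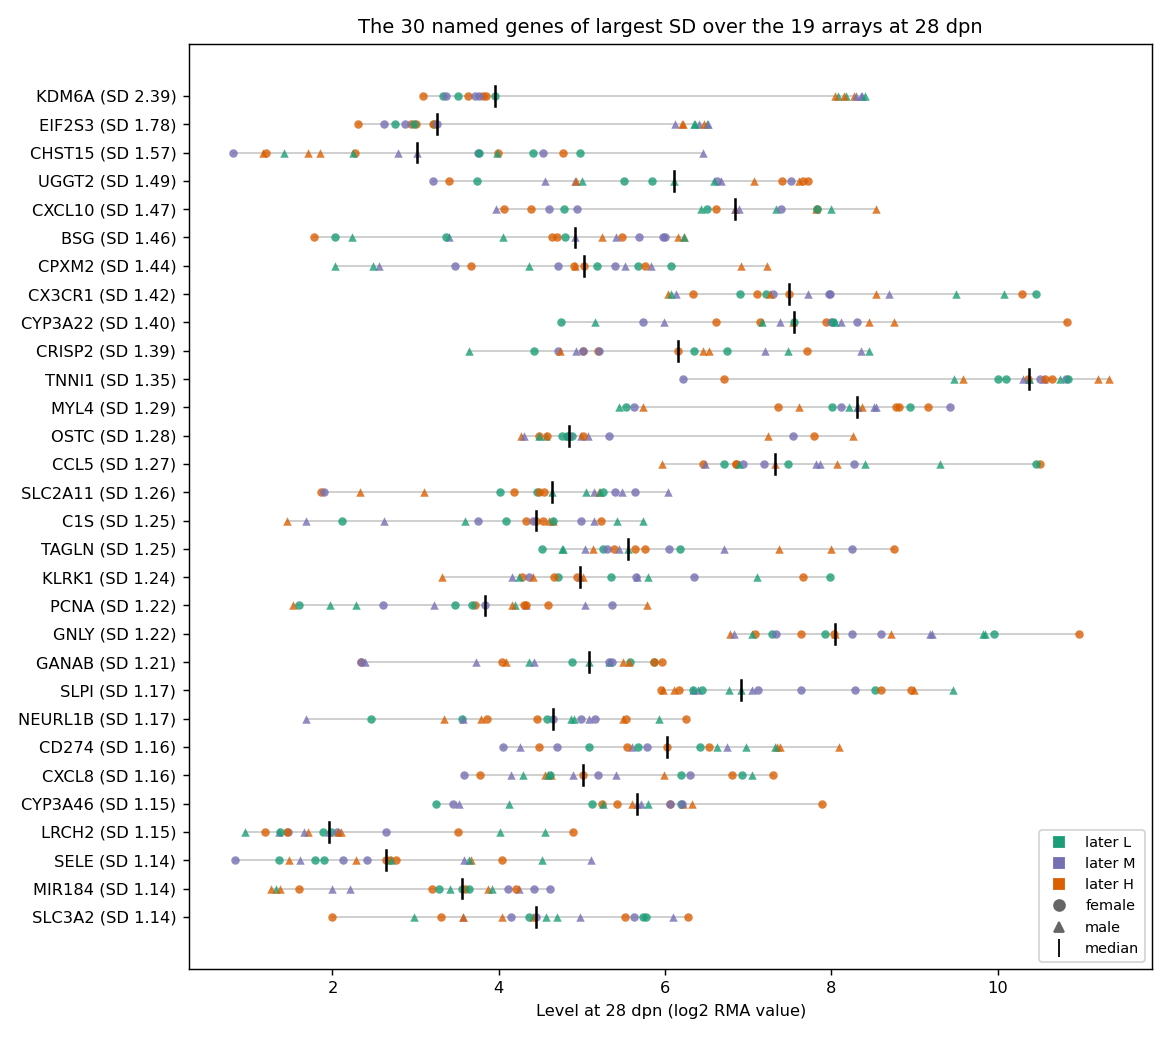
Level at 28 dpn (log2) of the 30 named genes with the largest SD over the 19 pigs, 1 point for each pig coloured by later diet (L, M or H), with genes ordered by SD from 2.39 for KDM6A downwards. Pigs of all 3 later diets are scattered along the range of most genes, and the levels of KDM6A and EIF2S3 fall into separate high and low sets.

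Several genes of cytotoxic T and NK cells were among the 30. CX3CR1, the fractalkine receptor of effector lymphocytes and monocytes, ranged from 6.03 in pig 3 through a median of 7.48 to 10.46 in pig 20. The chemokine CCL5 ranged from 5.97 in pig 3 through 7.32 to 10.51 in pig 18. The granule protein GNLY ranged from 6.79 through 8.04 to 10.98 in the same pigs 3 and 18. The activating receptor KLRK1 ranged from 3.32 in pig 3 through 4.98 to 7.98 in pig 20, and GZMB, granzyme B, which is outside the 30, from 7.25 in pig 6 through 8.80 to 10.80 in pig 10. Pigs 1, 10 and 20 of the L group and pig 18 of the H group were therefore high in several of these genes at once, and pigs 3 and 6 of the H group low. Expressed as the mean of the 18 measured list genes after centring each on its mean over pigs, the cytotoxic list stood at 0.80 in pig 1, 1.09 in pig 10, 1.07 in pig 20 and 1.24 in pig 18. The next pig was pig 11 at 0.26, and the lowest were pig 3 at -0.67 and pig 8 at -0.62. Of the 18 genes 13 had an SD over 0.5, a limit that 10.5% of all probe sets passed. The T cell list as a whole varied little, from -0.33 in pig 2 to 0.40 in pig 18, with a median SD of 0.25 over its 12 genes.

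Interferon targets and chemokines also varied. CXCL10, an interferon-induced chemokine for T cells, ranged from 3.97 in pig 8 through 6.84 to 8.53 in pig 3, and its levels fell into a low and a high set with a gap of 1.49 between them. CD274 (PD-L1), an interferon-induced inhibitory ligand, ranged from 4.05 in pig 5 through 6.03 to 8.09 in pig 3. RTP4, an interferon target outside the 30, ranged from 6.83 in pig 12 through 8.08 to 9.76 in pig 17. The mean of the 36 interferon-stimulated genes was lowest in pig 8 (-0.81), pig 14 (-0.68) and pig 5 (-0.59) and highest in pig 17 (0.84), pig 10 (0.67) and pig 16 (0.58). Each later diet had pigs on both sides, since the H group ran from -0.49 in pig 9 to 0.45 in pig 11 and the L group from -0.68 to 0.84. By pig number the values were less scattered. The list was positive in all of pigs 15 to 20, with pig 20 lowest at 0.21. Of the other pigs only 1, 3, 10 and 11 were positive, at 0.16, 0.34, 0.67 and 0.45. The gamma-delta T cell list, of 2 measured genes, lay from 0.32 to 1.06 in pigs 15 to 20 and at 0.11 or lower in the others. Pigs 15 to 20 came from all 3 later diets. This order by pig number was seen after the values were known and was not tested. The neutrophil chemoattractant CXCL8 ranged from 3.59 in pig 19 through 5.01 to 7.30 in pig 6.

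The 30 also held genes known from other tissues, such as muscle, and further genes outside the cytotoxic and interferon groups. TNNI1, the troponin I of slow muscle, lay between 9.48 and 11.34 in 17 pigs and at 6.71 in pig 18 and 6.22 in pig 19. MYL4, a myosin light chain of atrial and embryonic muscle, was low in 4 pigs, with 5.45 in pig 17, 5.53 in pig 20, 5.63 in pig 19 and 5.73 in pig 15, and between 7.36 and 9.43 in the other pigs. OSTC, a subunit of the oligosaccharyltransferase complex, was high in 4 pigs, at 8.27 in pig 3, 7.80 in pig 12, 7.54 in pig 5 and 7.24 in pig 11, while the others lay between 4.27 and 5.32. A gap of at least 1 between 2 sets of pigs was seen in 9 of the 30 genes, among them KDM6A and EIF2S3, whose sets were the sexes, and CXCL10. SLPI, a secreted protease inhibitor of mucosal fluids and neutrophils, had no gap of that size and ranged from 5.95 in pig 18 through 6.92 to 9.47 in pig 1. The smooth muscle protein TAGLN ranged from 4.53 in pig 20 through 5.55 to 8.75 in pig 12. The porcine cytochromes CYP3A22, from 4.75 in pig 4 to 10.84 in pig 6, and CYP3A46, from 3.24 in pig 4 to 7.89 in pig 6, had the same pigs at their ends. They belong to 1 enzyme family of similar sequence, and a sharing of signal between their probe sets was not tested.

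**Figure D2:**
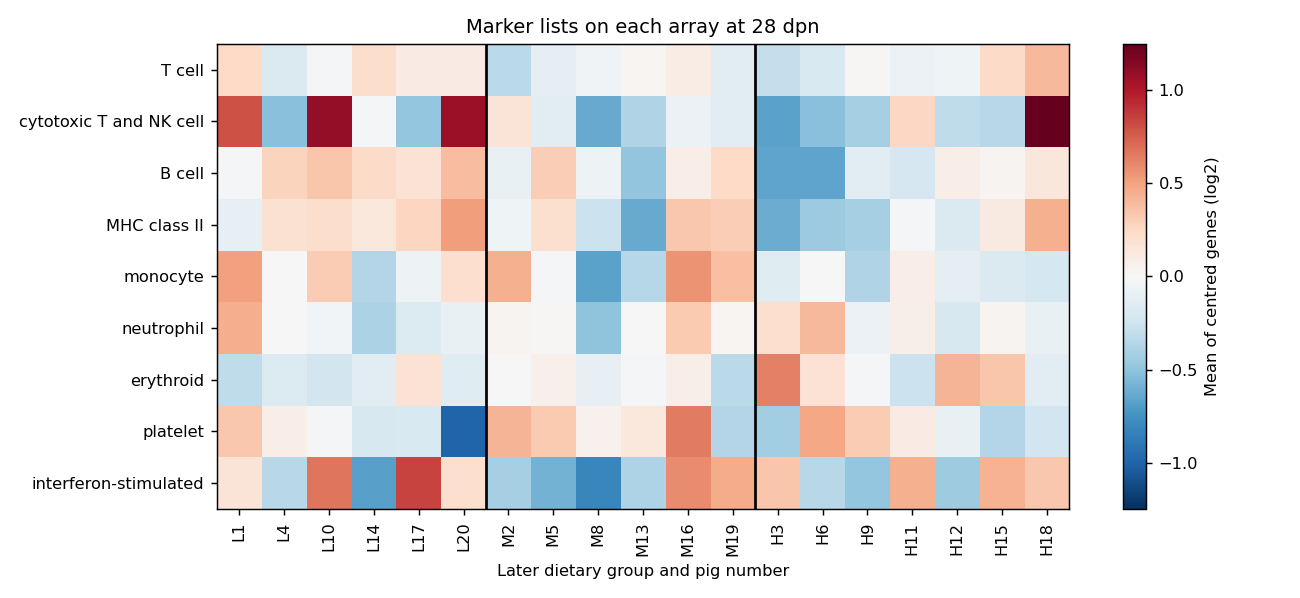
Mean of the centred genes of each gene list (log2, colour scale) in each of the 19 pigs at 28 dpn, for 9 lists in rows and pigs ordered by later diet in columns. The cytotoxic list is highest in pig 18 (1.24) and lowest in pig 3 (-0.67), and the B cell list is lowest in pigs 6 (-0.66) and 3 (-0.65), both of the H group.

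The 63 dpn arrays of the same pigs, which entered the filter but not the ranking by SD, were used to ask whether a pig kept its place. For the 9 genes with separate sets, the smaller set was followed. All 8 pigs of the smaller set, the males, were on the same side at 63 dpn for KDM6A and EIF2S3. So were both low pigs for TNNI1, 3 of 4 high pigs for OSTC, 3 of 4 low pigs for MYL4, 2 of 5 low pigs for CXCL10 and 1 of 3 low pigs for BSG. Neither of the high pigs for CCL5 and 0 of 3 low pigs for GANAB kept their side, as no pig was above 8.94 for CCL5 or below 4.69 for GANAB at 63 dpn. The low TNNI1 levels of pigs 18 and 19 recurred at 63 dpn as 5.53 and 6.53, with the other pigs between 9.10 and 10.90. The 4 pigs high in OSTC were at 6.90, 5.86, 6.87 and 6.33 at 63 dpn (pigs 3, 12, 5 and 11), against 4.32 to 5.22 in the other pigs. Of the 14 other pigs, all were below the middle of the 28 dpn gap at 63 dpn, and pig 12 was the single pig to cross it.

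The other 21 genes were tested by correlation over the 18 pigs, with 100000 permutations and Benjamini-Hochberg adjustment over the 21 genes, and 15 had a positive r. SLPI gave the largest r, with Pearson's r = 0.85 (permutation test, p = 6e-05, adjusted p = 0.00126) and Spearman's rho = 0.66 (permutation test, p = 0.00409, adjusted p = 0.0475). Without pigs 1 and 3, the farthest from the median at 28 dpn, r was 0.84. The 6 pigs of highest SLPI, pigs 1, 3, 4, 6, 12 and 13, lay between 8.28 and 9.47 at 28 dpn and between 8.41 and 10.06 at 63 dpn, and every other pig was at 7.64 or lower and at 6.70 or lower at these ages. Within the 6 high pigs the order was not kept. Pig 1 was the highest of them at 28 dpn (9.47) and the lowest at 63 dpn (8.41), while pig 12 rose from 8.60 to 10.06. The order within the high and low sets was not tested. TAGLN gave r = 0.72 (permutation test, p = 0.00082, adjusted p = 0.00861) and rho = 0.61 (permutation test, p = 0.00853, adjusted p = 0.0597), and r was 0.77 without pigs 5 and 12. CYP3A22 gave r = 0.63 (permutation test, p = 0.00397, adjusted p = 0.0278) and rho = 0.51 (adjusted p = 0.111), and r was 0.54 without pigs 4 and 6. CRISP2, a cysteine-rich secretory protein of sperm, gave r = 0.57 (permutation test, p = 0.0141, adjusted p = 0.0544) and rho = 0.65 (adjusted p = 0.0475). LRCH2 gave a negative r of -0.62 (permutation test, p = 0.00548, adjusted p = 0.0288) with rho = -0.54 (adjusted p = 0.111), and r was -0.57 without pigs 10 and 18, but its mean at 28 dpn of 2.25 was the lowest of all tested probe sets, and it passed the filter through its 63 dpn mean of 2.88. So 4 genes passed by r and SLPI alone by both measures. CXCL8 gave r = 0.57 (permutation test, p = 0.0155, adjusted p = 0.0544) and rho = 0.48 (adjusted p = 0.143), and r was 0.46 without pigs 1 and 6. GNLY (r = -0.02), CX3CR1 (0.23), KLRK1 (0.23) and CD274 (-0.03) had adjusted p values (permutation test) from 0.527 to 0.965. A shared order was not detectable for these 4 genes over 18 pigs, and the diets fed between the ages were not separated from age in these correlations.

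**Figure D3:**
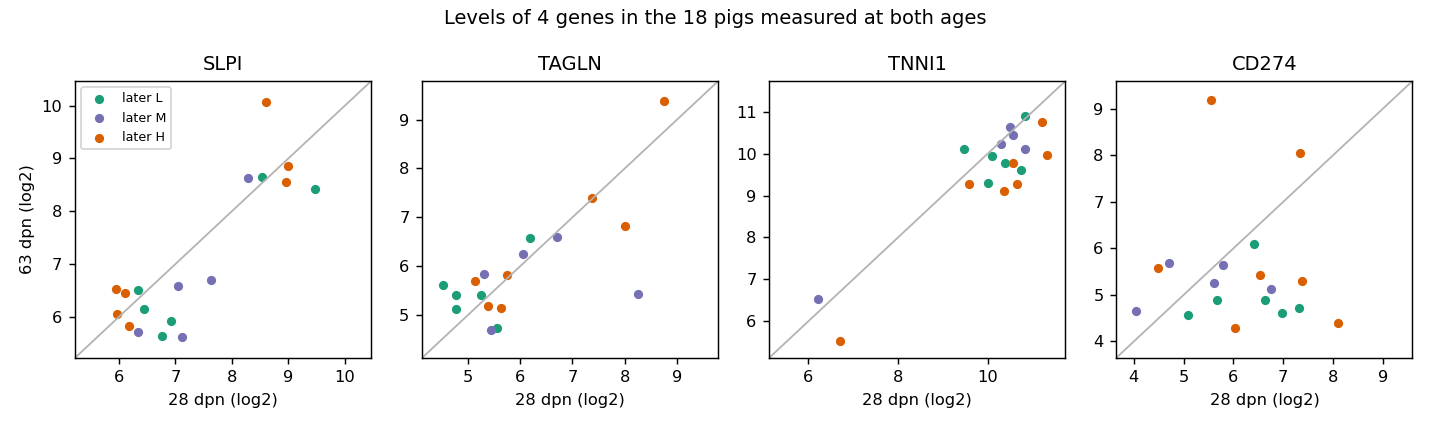
Level at 28 dpn (log2, horizontal) against level at 63 dpn (log2, vertical) of the same 18 pigs for SLPI, TAGLN, TNNI1 and CD274, 1 point for each pig coloured by diet. SLPI (r = 0.85) has the same 6 high pigs at both ages, TAGLN rises with r = 0.72, TNNI1 has the same 2 low pigs at both ages, and CD274 (r = -0.03) shows no shared order.

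In the comparison of the later diets, no probe set was called in any test at 28 dpn. Over 28086 probe sets the count was 0 (0%) for any difference among L, M and H, 0 (0%) for H against L at 28 dpn, 0 (0%) for M against L at 28 dpn, 0 (0%) for H against M at 28 dpn and 0 (0%) for H against the mean of L and M. Unadjusted P values of at most 0.05 were given by 3162 probe sets for any difference (11.3%), by 4759 for H against L (16.9%), by 1680 for M against L (5.98%), by 1563 for H against M (5.57%) and by 3672 for H against the mean of L and M (13.1%). For H against L 2064 of these were higher in H and 2695 lower, and the smallest q was 0.0883, whereas it was 0.748 for M against L. The count of 0 for H against L at 28 dpn depended on the arrays, since 635 probe sets were called without pig 12 of the H group, 193 higher and 442 lower, 1 without pig 17 of the L group and 1703, 556 higher and 1147 lower, with weights given to arrays by their quality. For H against the mean of L and M before feeding the count was 18 without pig 12, 25 without pig 13 of the M group and 1 without pig 17.

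Levels of the genes with the lowest P values are given as a description of where the H pigs stood. A choice by lowest P favours ranges that overlap little or not at all. How many of all probe sets had such ranges was not counted. STAP1, an adaptor protein of B cell receptor signalling, ranged in the L pigs from 6.86 through a median of 7.05 to 7.16, in the M pigs from 6.46 through 6.91 to 7.20 and in the H pigs from 5.99 through 6.45 to 6.63. All 7 H pigs were below every L pig, and M pig 13 alone fell within the H range. The difference of H from the average of L and M was -0.57 (SE 0.11, limma q = 0.137). BLNK, the linker protein downstream of the same receptor, ranged from 6.34 through 6.54 to 7.14 in L, from 5.86 through 6.85 to 7.37 in M and from 4.56 through 5.88 to 6.27 in H. Again no H pig reached the lowest L pig, and the difference was -1.05 (SE 0.23, limma q = 0.137), with -0.41 (q = 0.196) for a second BLNK probe set. The kinase BTK, which acts beside BLNK in this pathway, ranged from 8.06 through 8.15 to 8.43 in L, from 7.70 through 8.20 to 8.49 in M and from 7.20 through 7.64 to 8.10 in H. Here L and H overlapped narrowly, and the difference was -0.53 (SE 0.12, limma q = 0.137). Outside this pathway, H stood lower by the same contrast in the neuronal kinase DCLK1 (-0.62, SE 0.13), the axonemal dynein light chain DNAL1 (-0.81, SE 0.18) and ARMC1 (-0.44, SE 0.10), all with q = 0.137. ARMC1 lay between 5.28 and 5.65 in H, between 5.58 and 6.05 in M and between 5.78 and 6.01 in L.

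Among genes with a higher level in H, PIRT, a regulator of ion channels in sensory neurons, ranged from 3.76 through 3.94 to 4.07 in L, from 3.65 through 4.02 to 4.24 in M and from 4.23 through 4.57 to 4.95 in H, a difference of 0.60 (SE 0.12, limma q = 0.137). The H and M pigs overlapped only at 4.23 and 4.24. RSPH6A, a radial spoke protein of cilia, differed by 0.56 (SE 0.12), the extracellular matrix protein HMCN1 by 0.48 (SE 0.11) and FAM53C by 1.39 (SE 0.33), with H from 4.83 to 6.31 and the L and M pigs from 2.38 to 5.19. The nucleotide receptor P2RY4 differed by 0.45 (SE 0.11, limma q = 0.167), with all H pigs between 5.75 and 6.37 and all L pigs between 5.20 and 5.71. The M pigs lay between 5.10 and 6.09 and overlapped with H. P2RY4 was chosen by lowest P for H against L, which favours separate ranges of H and L. Between M and L, where 5.98% of probe sets had an unadjusted P of at most 0.05 and the smallest q was 0.748, the atypical kinase MAPK4 was at 4.37 or lower in L, with a median of 3.94, and ranged from 4.96 through 5.42 to 5.69 in M, a difference of 1.49 (limma q = 0.748). The chaperone DNAJB1 lay between 3.50 and 4.18 in L and between 2.89 and 3.19 in M, a difference of -0.73. Neither was called. Their M and L ranges did not overlap, which a choice by lowest P favours. The share of all probe sets with such ranges was not counted.

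**Figure D4:**
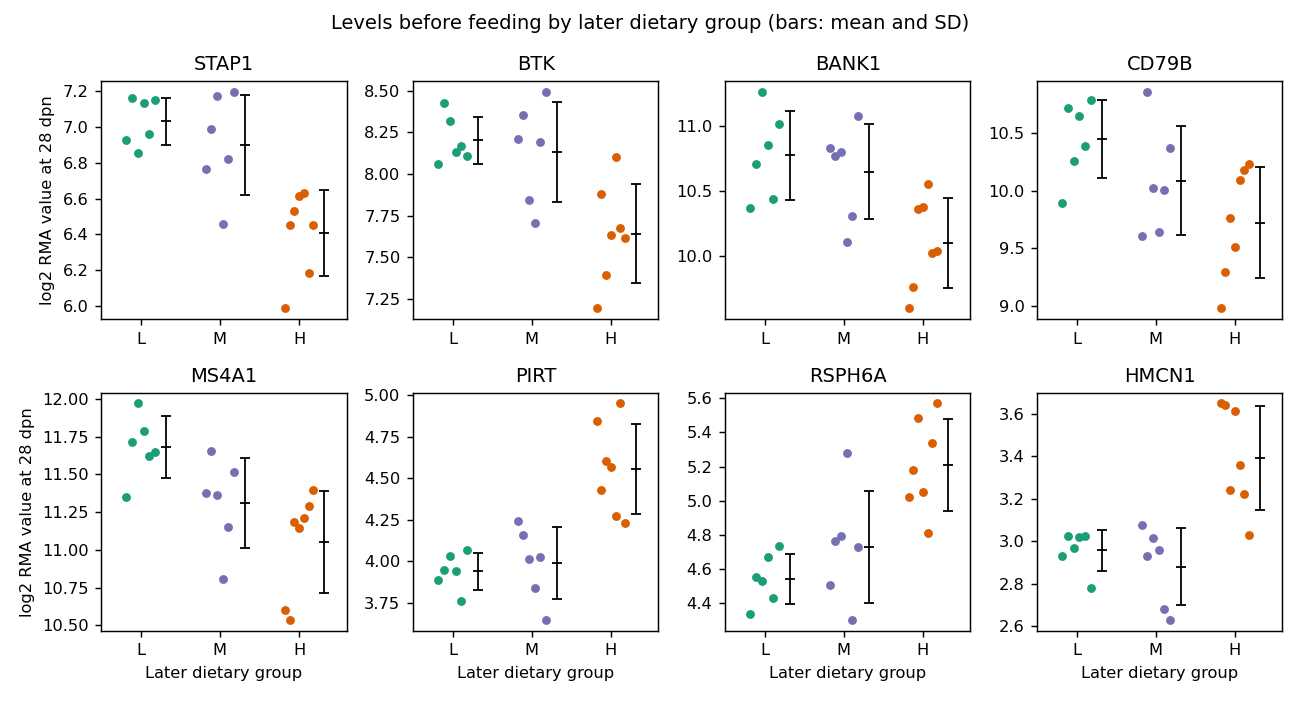
Level at 28 dpn (log2) of STAP1, BTK, BANK1, CD79B, MS4A1, PIRT, RSPH6A and HMCN1 in pigs grouped by later diet (6 L, 6 M and 7 H), with points for pigs and bars for the mean ± SD. The H pigs tend to the lower end for the first 5 genes, of B cells, and to the upper end for the last 3, with overlap of H and the other pigs in each panel and no call in any.

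The B cell list was the cell type list with the most members at low P. Of its 12 genes that passed the filter, 11 had a lower mean in H than in L and M, and 8 of them had an unadjusted P of at most 0.05, against 8.44% of all 9533 named genes lower and 5.58% higher at that limit. Its median difference was -0.40, and that of all named genes -0.01, while 0 genes of the list were called. Against L alone 9 B cell genes were lower (12.2% of all named genes) and 1 was higher (7.62%), the median being -0.53. BANK1, a B cell scaffold protein, ranged from 10.36 through 10.78 to 11.26 in L, from 10.10 through 10.78 to 11.07 in M and from 9.59 through 10.03 to 10.55 in H, a difference of -0.62 (SE 0.15, limma q = 0.167). CD79B, a signalling chain of the B cell receptor, ranged from 9.89 through 10.52 to 10.79 in L, from 9.61 through 10.02 to 10.86 in M and from 8.98 through 9.76 to 10.23 in H, a difference of -0.57 (SE 0.18, limma q = 0.169). MS4A1 (CD20) ranged from 11.35 through 11.68 to 11.97 in L, from 10.81 through 11.37 to 11.65 in M and from 10.54 through 11.18 to 11.39 in H, a difference of -0.46 (SE 0.16, limma q = 0.175). The groups overlapped in all 3 genes, most H pigs being at the lower end. The lineage factors EBF1 (-0.47) and PAX5 (-0.46), the survival receptor TNFRSF13C (-0.39) and the inhibitory receptor CD22 (-0.35) had the same sign, and CD79A gave -0.30 (limma q = 0.297). CD72, another inhibitory receptor, was the exception at 0.29.

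By pig, the mean of the B cell list was -0.66 in pig 6, -0.65 in pig 3, -0.21 in pig 11, -0.14 in pig 9, 0.04 in pig 15, 0.08 in pig 12 and 0.14 in pig 18 of the H group. In the L group it lay between -0.01 in pig 1 and 0.38 in pig 20. In the M group it ran from -0.49 in pig 13 to 0.31 in pig 5. The low values were thus those of pigs 6 and 3 above all, with M pig 13 the next. Leaving out each pig in turn left between 6 and 9 genes lower at P of at most 0.05 and a median between -0.48 and -0.32. At 63 dpn the median of the same list for H against L and M was -0.01. Whether the difference of the H pigs was the same at both ages was tested directly over all probe sets, with 0 (0%) called and 5651 (20.1%) at an unadjusted P of at most 0.05 for H against the mean of L and M, 28 against 63 dpn. The smallest q was 0.0509, for ARMCX2, and this count rested on single arrays, as it was 1565 without pig 12, 1300 without pig 13, 671 without pig 17, 622 without pig 11, 587 without pig 8 and 189 without pig 6.

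The next lists held fewer genes at low P than the B cell list, and their part in its difference was not tested. Of all 9533 named genes 4841 had a lower mean in H. At an unadjusted P of at most 0.05, 8.44% of them were lower and 5.58% higher. Passing means this limit here and is not a call. All 10 measured MHC class II genes had a lower mean in H, 2 of them with an unadjusted P of at most 0.05, with a median of -0.27, and between 0 and 8 of them passed when single pigs were left out, 0 without pig 9 and 8 without pig 18. The class II transactivator CIITA gave -0.27 (limma q = 0.224) and SLA-DRA, which encodes the alpha chain of swine DR, -0.30 (limma q = 0.257), neither called. All 14 measured erythroid genes had a higher mean in H, 2 with an unadjusted P of at most 0.05, with a median of 0.23, and between 0 and 6 passed when single pigs were left out, the most without pig 11. The mean of the erythroid list ran from -0.27 to 0.62 in H, from -0.34 to 0.07 in M and from -0.31 to 0.18 in L, its highest values being those of pig 3 and pig 12. The iron transporter SLC25A37 gave 0.43 (limma q = 0.228) and the Rh-associated glycoprotein RHAG 0.42 (limma q = 0.245). Of 17 monocyte genes 14 had a lower mean in H and 2 passed, near the share of all named genes, with a median of -0.23. The T cell list was balanced, with 6 of 12 genes lower, 0 passing and a median of -0.01. Of 18 cytotoxic genes 14 had a lower mean in H and 1 passed, not above the share of all named genes, with 0 to 5 when single pigs were left out, the 5 without pig 18.

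Between M and L, where 4.63% of all named genes were lower in M and 2.26% higher at an unadjusted P of at most 0.05, 3 lists are described, with examples chosen after their values were seen, and no gene of them was called. Of 25 cell cycle genes all had a lower mean in M, 10 of them at that limit, with a median of -0.26. The replication helicase subunit MCM4 ranged from 6.70 through 7.12 to 7.32 in L and from 6.35 through 6.79 to 6.91 in M, and the proliferation marker MKI67 from 7.25 through 7.55 to 7.91 and from 6.83 through 7.30 to 7.45. The groups overlapped in both genes, with M toward the lower end. The count of 10 was 5 without pig 13, 14 or 19 and 6 without pig 4 or 10. Of 16 heat shock genes 15 had a lower mean in M, 8 of them at that limit, with a median of -0.31, and for H against L 7 of 16 were lower at that limit (12.2% of all named genes). The mitochondrial chaperone HSPD1 ranged from 8.21 through 8.41 to 8.66 in L and from 7.47 through 8.09 to 8.16 in M, and HSP90AA1 from 9.54 through 9.94 to 10.39 and from 9.12 through 9.61 to 9.97. The count of 8 was 4 without pig 1 or 13 and 5 without pig 8 or 10. All 18 cytotoxic genes had a lower mean in M, 3 of them at that limit, with a median of -0.52. The count of 3 was 9 without pig 4, 7 without pig 14 or 17, 6 without pig 18 and 5 without pig 2.

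A further list held the genes of pathways that the study named for the H diet. Of its 50 measured members, 42 had a lower mean in H than in L and M before feeding, 15 of them with an unadjusted P of at most 0.05, where 8.44% of all named genes were lower, and the median was -0.18. The count was 9 without pig 3 and between 13 and 18 without any other pig. At 63 dpn the median of the same genes for the same contrast was 0.27. This list was chosen by the study on these samples, so it is no independent evidence of a direction. Of 18 measured genes of phosphate, calcium and vitamin D handling, 3 had an unadjusted P of at most 0.05, all lower in H, a share near that of all named genes at this limit (8.44% lower and 5.58% higher). They were the plasma membrane calcium pumps ATP2B4 (-0.45, SE 0.11, limma q = 0.167) and ATP2B1 (-0.34, SE 0.11, limma q = 0.169) and the phosphate transporter SLC20A2 (-0.28, SE 0.13, limma q = 0.245). The other 15 included the phosphate exporter XPR1 (0.02, SE 0.15), the vitamin D receptor VDR (0.10, SE 0.14) and the calcium-sensing receptor CASR (0.19, SE 0.12). Of 23 bone and osteoclast genes 3 were at that limit, also near the share of all named genes and also lower, namely the osteoclast protease CTSK (-0.62, SE 0.20), the osteoclast transcription factor NFATC1 (-0.43, SE 0.13) and SMAD5 (-0.34, SE 0.13). The receptor RANK (TNFRSF11A) gave -0.22 (SE 0.13) and its ligand TNFSF11 -0.10 (SE 0.19). No gene of either list was called.

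Sex was compared in the same 19 arrays with the later diet as a factor, and 14 probe sets were called (0.0498%), 8 higher in females and 6 higher in males. A probe set of KDM6A lay between 3.09 and 3.95 in the 10 females and between 8.04 and 8.41 in the 9 males, a difference of -4.64 for females against males (SE 0.11, limma q = 7.13e-18). A probe set of EIF2S3 lay between 2.31 and 3.26 in females and between 6.11 and 6.52 in males, a difference of -3.43 (SE 0.12, limma q = 7.91e-15). No pig lay on the side of the other sex. Both genes have a similar copy on the Y chromosome, and a sharing of signal with that copy was not tested. A second KDM6A probe set was also higher in males (-1.22, limma q = 0.000546). A second EIF2S3 probe set was higher in females (0.61, limma q = 0.0351), and a KDM6A probe set of higher level, at 0.44 (limma q = 0.267), was not called. ZFX, an X-linked transcription factor, lay between 5.26 and 5.94 in females and between 4.48 and 5.04 in males, a difference of 0.78 (limma q = 0.000678). The largest differences belonged to probe sets without a gene name, SNOWBALL_037083_st with 7.72 and SNOWBALL_023078_st with 7.11. None of the other 28 most variable genes was called for sex.

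The spread between pigs was compared with that of 63 dpn as the distance of each pig from the mean of its diet and age group. Over all probe sets the SD was similar at both ages, with a median of 0.292 at 28 dpn and 0.302 at 63 dpn, and 2 probe sets were called (0.00712%), both wider at 28 dpn. One was RTP4, which ranged from 6.83 to 9.76 at 28 dpn and from 7.31 to 8.47 at 63 dpn, so that its mean distance was larger by 0.66 (SE 0.10, limma q = 0.00114). The call of RTP4 was lost when distances were taken from the group median (difference 0.65, limma q = 0.404). The other called probe set had no gene name. CX3CR1 had an SD of 1.42 against 0.40 and a difference of 0.93 (SE 0.19, limma q = 0.0728). XAF1, an interferon-induced apoptosis factor, had an SD of 0.77 against 0.37, and GZMB 1.08 against 0.50.

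Lists differed in the number of genes at low P in this test. Of 18 cytotoxic genes all had a larger SD at 28 dpn, and 11 of them were wider with an unadjusted P of at most 0.05, against 3.24% of all named genes wider and 6.65% narrower at 28 dpn. The median SD was 0.59 at 28 and 0.41 at 63 dpn. The count lay between 9 and 12 when single pigs were left out and was 7 for distances from the group median. Of 36 interferon-stimulated genes 15 had the larger SD at 28 dpn. By the test, 13 were wider and 1, OASL, narrower, with a median SD of 0.61 against 0.48, and the 13 became 23 without the 63 dpn arrays of pigs 11 and 12. Of 15 platelet genes 10 were narrower, with a median SD of 0.51 against 0.89, and 5 were narrower for distances from the group median. PPBP ranged from 7.78 to 10.04 at 28 dpn and from 2.67 to 10.40 at 63 dpn, and the integrin ITGB3 from 8.09 to 10.81 and from 4.67 to 10.50. The lowest 28 dpn values of both were those of pig 20, whose platelet list stood at -0.99. B cell genes had a similar spread at both ages, with a median SD of 0.39 and 0.34 and 0 of 12 genes at that limit in either direction.

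**Figure D5:**
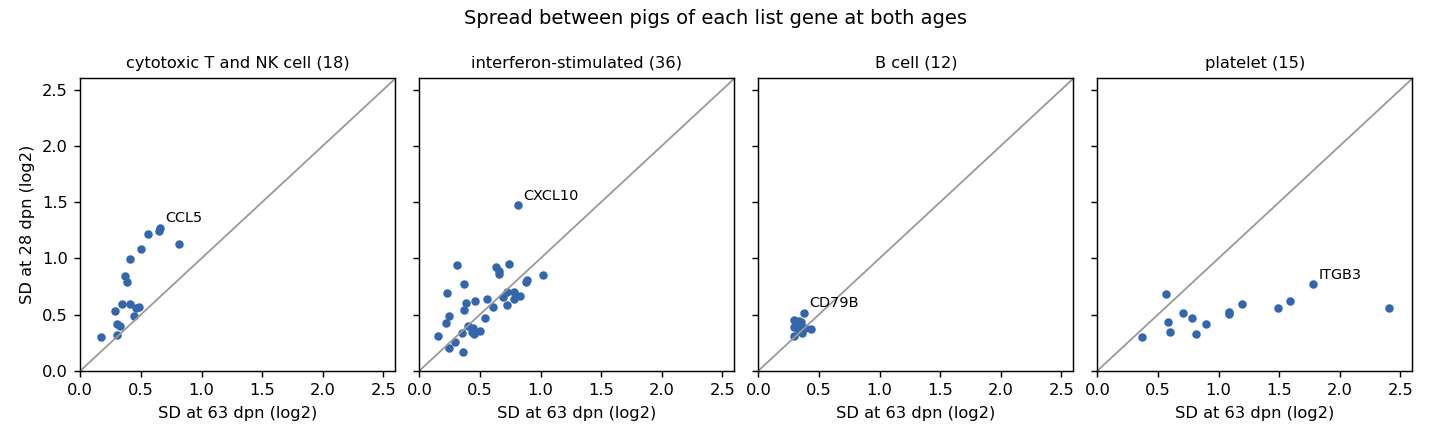
SD between pigs at 28 dpn (log2, vertical) against SD at 63 dpn (log2, horizontal), 1 point for each gene, for 18 cytotoxic, 36 interferon-stimulated, 12 B cell and 15 platelet genes, with the line of equal SD. All 18 cytotoxic genes lie on the side of larger SD at 28 dpn, and 14 of the 15 platelet genes on the side of larger SD at 63 dpn.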

How the data were processed

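Total RNA of PBMC was hybridised by the authors to the porcine Snowball array (Affymetrix), read with GCOS 1.1.1 per the labels and normalized by RMA, a method that subtracts background, brings arrays to 1 distribution and summarises the probes of a probe set. The deposited table holds these log2 values for 47845 probe sets, with 0 columns of no sample. After removal of 123 control probe sets, those with SD over 0.23 and mean over 2.5 over all 37 arrays were kept, as in the study, 28086 in all (58.7%), of which 15356 carried the symbol of 1 of 9533 genes in the array annotation and 12730 none. The deposited values come without a background level, so no detection limit beyond this filter was applied.

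The diet comparisons used limma 3.58.1 in R 4.3.3 on all 37 arrays, with 6 groups of diet and age and with sex as factors. Sire, a factor of the study's model, is not in the labels. Sex was fitted on the 19 arrays with diet. Spread was fitted on absolute deviations from the group mean, scaled for group size. Storey q values were computed over all probe sets. Array quality was judged by arrays' medians, correlation (at most 0.251 after centring, so no array was a repeat) and principal components. The fits were tested on simulated data.

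Pig numbers pair the arrays of both ages, as the labels give the same number to the same pig. The correlation of a pig's deviations at both ages ran from -0.16 to 0.24, with 8 of 18 over 0.1, and the consensus correlation of limma was -0.00581. The pig entered as a block among the alternatives.

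Named genes were the 30 of largest SD, up to 8 of lowest P for each contrast and each direction of spread, up to 15 for sex, up to 4 of largest SD from each list, and genes of phosphate and bone physiology. Further list members were chosen for the text with their values known. A list gene was taken by its probe set of highest mean, and centred genes were averaged to give a list's value in a pig. The members, gene lists and tests were chosen with earlier results of these data known. Alternatives changed the adjustment, variance, filter, weights, normalization, centring, covariates and the arrays in the fit, and left out each 28 dpn array in turn. Counts for gene lists under alternatives were added after the data had been seen.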

Additional observations from a re-analysis of the deposited data

Results flagged for a closer look

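Single pigs lay far from the rest of their later diet group in 14 of 198 group checks over 39 genes and 27 lists, where chance gives about 1 in 20. Most of these genes were chosen for their wide range over the same pigs, which favours such gaps. The gap of that pig to its nearest neighbour was large against the range of its group. In the H group, BSG, an immunoglobulin-family membrane protein, was 1.77 in pig 12 with the next pig at 4.64, and TNNI1 was 6.71 in pig 18 with the next at 9.59. The complement protease C1S was 1.45 in pig 15 with the next at 4.33. On the high side of H stood KLRK1, at 7.66 in pig 18 with the next at 5.01, and CYP3A46, at 7.89 in pig 6 with the next at 6.33. Pig 19 of the M group was low in 3 genes, TNNI1 (6.22, next 10.30), MYL4 (5.63, next 8.12) and the sugar transporter SLC2A11 (1.89, next 5.15), and pig 5 of the M group was high in OSTC (7.54, next 5.32). In the L group MIR184, measured by a probe set of the mouse microRNA, was 1.32 in pig 1 with the next at 3.28. The low values of BSG, C1S, SLC2A11 and MIR184 were below 2.5, the mean that the filter asks for, and carry little signal.

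The 27 lists taken alone were flagged at about the rate of 1 in 20 that chance gives, so their flags are only a description. Of the lists, the eosinophil and basophil list stood at 0.63 in H pig 15 with the next at 0.00, and it rested on 3 measured genes. The erythroid list stood at 0.18 in L pig 17 with the next at -0.14, the inflammatory cytokine and chemokine list at -0.28 in H pig 3 with the next at -0.03, and the fatty acid oxidation list at -0.23 in H pig 9 with the next at -0.06.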

How the results depend on the processing

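No probe set was called among the diet groups at 28 dpn, any difference, under the alternatives run, except for 90 with array weights. The counts for M against L at 28 dpn and H against M at 28 dpn were 0 throughout. For H against L at 28 dpn the count was 1703 with array weights and from 0 to 635 when single pigs were left out, and for H against the mean of L and M before feeding it was from 0 to 25. For H against the mean of L and M, 28 against 63 dpn, where 0 were called, the count was 426 with unmoderated variances, 47 with no filter, 2659 with a mean over 5 as the filter, 224 with array weights, 51 with no sex term, 186 with arrays centred on their median and from 0 to 1565 when single pigs were left out. For female against male at 28 dpn it was 24 with all 37 arrays and 9 with the stricter filter, against 14, and from 11 to 17 when single pigs were left out. For the spread between pigs, 28 against 63 dpn, it was 0 with deviation from the group median, 11 without the 63 dpn arrays of pigs 11 and 12 and from 2 to 11 when single pigs were left out, against 2. Of the 30 most variable genes at 28 dpn, 18 were shared with the ranking under the stricter filter, 14 with that by median absolute deviation and from 25 to 28 with that after leaving out single pigs. The stricter filter tested 16215 probe sets; otherwise the cause of these shifts was not tested.

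With the pig as a replicate block, as a random effect, 0 probe sets were called in each diet comparison, the smallest q for H against L at 28 dpn being 0.088, and 2 were called for the spread, so that the pairing changed no call. A comparison of 6 or 7 pigs a group, with litter and sire unknown here, limits what the diet contrasts can resolve, and a single pig moved several counts. Values near the lower end of the scale, as for 13 of the 30 most variable genes with a mean under 5, carry little signal.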

Other observations

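Pairs of marker genes were compared across the 19 pigs at 28 dpn, as 6 relations with Benjamini-Hochberg adjustment over the 6. The calgranulins S100A8 and S100A9 varied together, with Pearson's r = 0.90 (permutation test, p = 1e-05, the smallest that the permutations can give, adjusted p = 6e-05), Spearman's rho = 0.85 (adjusted p = 6e-05) and r = 0.83 without the 2 pigs farthest from the median of S100A8. The B cell genes MS4A1 and CD79A gave r = 0.83 (permutation test, p = 3e-05, adjusted p = 9e-05), rho = 0.68 (adjusted p = 0.00567) and r = 0.65 without 2 pigs. The cell cycle genes MKI67 and TOP2A gave r = 0.54 (permutation test, p = 0.0167, adjusted p = 0.0333) and rho = 0.52 (adjusted p = 0.0342), and r was 0.66 without 2 pigs. The B cell gene MS4A1 and the T cell gene CD3E gave r = 0.46 (permutation test, adjusted p = 0.0687), rho = 0.54 (adjusted p = 0.0342) and r = 0.34 without 2 pigs. No relation passed for the monocyte gene CD14 with CD3E (r = 0.03, permutation test, adjusted p = 0.916) or for the interferon targets MX1 and IFIT1 (r = -0.04, permutation test, adjusted p = 0.916), whose rho were -0.04 and 0.08.

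At 28 dpn 8.44% of all named genes were lower in H than in L and M at an unadjusted P of at most 0.05, and 5.58% were higher. Of 16 heat shock genes 14 had a lower mean in H and 1 was at that limit, not above this share, or 3 without pig 13 and 2 without pig 4 or 18. In the list of glycolysis and hypoxia genes it was 15 of 16, with 3 at that limit, 1 without pig 3 or 9 and 5 without pig 8. Of 15 neutrophil genes 12 had a higher mean in H and 0 were at that limit. The most variable probe set without a gene name, apart from those that followed sex, was SNOWBALL_021212_st, which ranged from 4.89 to 8.75 with an SD of 1.59.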
